A study of Mus musculus with 14 samples.

Results

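MYC and the proteins that share its partner MAX were followed at the RNA level in mouse tumours of LLC1, the Lewis lung carcinoma line. The set was taken by gene symbol and holds 10 genes: Myc, Mycl, Mycn, Max, Mxi1, Mxd1, Mxd4, Mnt, Mga and Mlx. Of the 21152 genes in the expression table, 9 were members, and 8 of these were high enough to be tested beside 13711 genes in all. Mycn was matched by no row and was not analysed here. Mycl lay too near the lowest value of the table to be tested.

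The tumours came from 4 groups of LLC1-bearing mice. Combo mice received MYCi975 together with TMP195 (n = 3 libraries), for whom no dose of either agent is stated in the labels. The single-agent groups received MYCi975 at 50 mg/kg (n = 4 libraries) or TMP195 at 50 mg/kg (n = 3 libraries). The Vehicle group received DMSO (n = 4 libraries), and treatment lasted 16 days in each group. MYCi975 is a small-molecule MYC inhibitor. TMP195 blocks histone deacetylases of class IIa. The labels name neither host strain nor age, and all tumours come from 1 line. The RNA was extracted from a fraction enriched for tumour cells according to the labels, while the design text speaks of a suspension of the bulk tumour. Nothing in the labels says that each library is a separate animal, so the p-values measure the spread between libraries, which may be technical in part. All comparisons with Vehicle use the same 4 Vehicle libraries.

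MYC, L-MYC and N-MYC are transcription factors that bind DNA only as a pair with MAX, at the E-box CACGTG, where they promote transcription of genes for growth, ribosome production and metabolism. MXD1, MXI1, MXD4 and MNT pair with the same MAX and recruit the SIN3 corepressor with its histone deacetylases, so they compete with MYC for both partner and site. MGA, which also carries a T-box domain, pairs with MAX inside a Polycomb-type repressor complex. MLX is a MAX-like protein whose main partners, MondoA and ChREBP, answer to glucose, and which can also pair with MNT, MXD1 and MXD4.

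The E-box itself lies in the RefSeq promoter windows of 4 members. A window here is 300 bases, 250 before and 50 after an annotated start, and the search was for the letters CACGTG, which read the same on both strands. The 8 members with an entry had 10 windows, and the 4 that hold an E-box compare with 7.15% of all 32851 promoter windows and 8.09% of 27025 genes. The parts of the windows around these E-boxes are shown because the motif is the common site of the whole family. Coordinates are RefSeq's on GRCm38.p6, each sequence runs 5′ to 3′ on the strand of its gene, and the capitals mark the E-box.
Max, chr12:76962229-76962288, minus strand: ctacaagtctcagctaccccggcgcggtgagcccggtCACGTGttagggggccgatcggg
Mxd4, chr5:34187887-34187960, minus strand: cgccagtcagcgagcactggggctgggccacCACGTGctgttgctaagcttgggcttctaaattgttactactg
Mnt, chr11:74830764-74830843, plus strand: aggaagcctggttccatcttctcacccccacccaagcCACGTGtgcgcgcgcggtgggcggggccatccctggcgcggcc
Mlx, chr11:101087213-101087292, plus strand: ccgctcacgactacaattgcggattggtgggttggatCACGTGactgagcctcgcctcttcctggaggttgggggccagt
The first base of the E-box lies 3 bases before the annotated start in Max, 219 before in Mxd4, 123 before in Mnt and 40 before in Mlx. These are matches of letters, and no binding was measured. The windows of Mycl, Mxi1, Mxd1 and Mga held no CACGTG. Myc itself had no promoter entry and was not searched. The start used for Max was not found among the starts of its GENCODE transcripts, while those of Mxd4, Mnt and Mlx were.

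Values are the authors' variance-stabilised expression on a log2-like scale with a shared lowest value of 4.05, and a difference of 1 is close to a doubling for genes well above that value. Depth is unknown, since no counts could be recovered. Between 880 and 2954 genes were at the lowest value in a library, the most in MYCi975 replicate 2. That library also held the highest Max, Mxd1, Mxi1 and Mnt values of the series. Member differences, counts and list medians that it moved by more than 1.5 times are given without it as well. The exception is counts of list genes at an unadjusted p under 0.05, which are given with all libraries only. Markers of other cells were present throughout, with Ptprc, the leukocyte antigen CD45, between 9.65 and 12.07 and the fibroblast collagen gene Col3a1 between 13.09 and 14.68. The epithelial keratin genes Krt8 and Krt18 lay between 7.84 and 8.89, while Epcam was at the lowest value in 4 libraries. No marker of B cells was high enough to be tested.

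Setting genes side by side needs a correction for length. After log2 of the longest annotated protein-coding transcript in kilobases was subtracted from the mean over 14 libraries, the level was 7.83 for Myc, 7.54 for Mxd1, 7.53 for Mxi1 and 7.31 for Max. On this per-kilobase log2 scale Mga had 6.44, Mxd4 6.12, Mlx 5.58 and Mnt 5.37. With the median transcript length instead, Mxi1 had 9.29, Mxd1 8.42, Myc 8.21 and Max 7.32. Thus Myc, Mxd1 and Mxi1 had the 3 highest levels and Max came after them by either length, while the order among the first 3 turned with the transcript chosen.

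Group means of Myc RNA differed from Vehicle by at most 0.16 log2 units. It was 8.98, 9.11 and 9.11 in the Combo libraries and 8.97, 9.27, 9.42 and 8.86 in the MYCi975 libraries. It was 9.0, 8.96 and 9.15 in the TMP195 libraries, against 8.69, 9.05, 9.27 and 8.86 in the Vehicle libraries. Every treated group overlapped the Vehicle group, whose own range of 8.69 to 9.27 took in all but 1 of the 10 treated libraries. Myc averaged 9.07 ± 0.07 in Combo, 9.13 ± 0.26 in MYCi975, 9.04 ± 0.10 in TMP195 and 8.97 ± 0.25 in Vehicle (SD). The difference from Vehicle was 0.10 for Combo (95% interval -0.23 to 0.432), 0.16 for MYCi975 (-0.148 to 0.466) and 0.07 for TMP195 (-0.264 to 0.398). None passed the test, with limma adjusted p-values of 0.992, 0.999 and 1. In MYCi975 the interval reaches down to a Myc level 0.148 log2 units under Vehicle and up to 0.466 above it. The RNA level says nothing of the MYC protein.

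**Figure D1:**
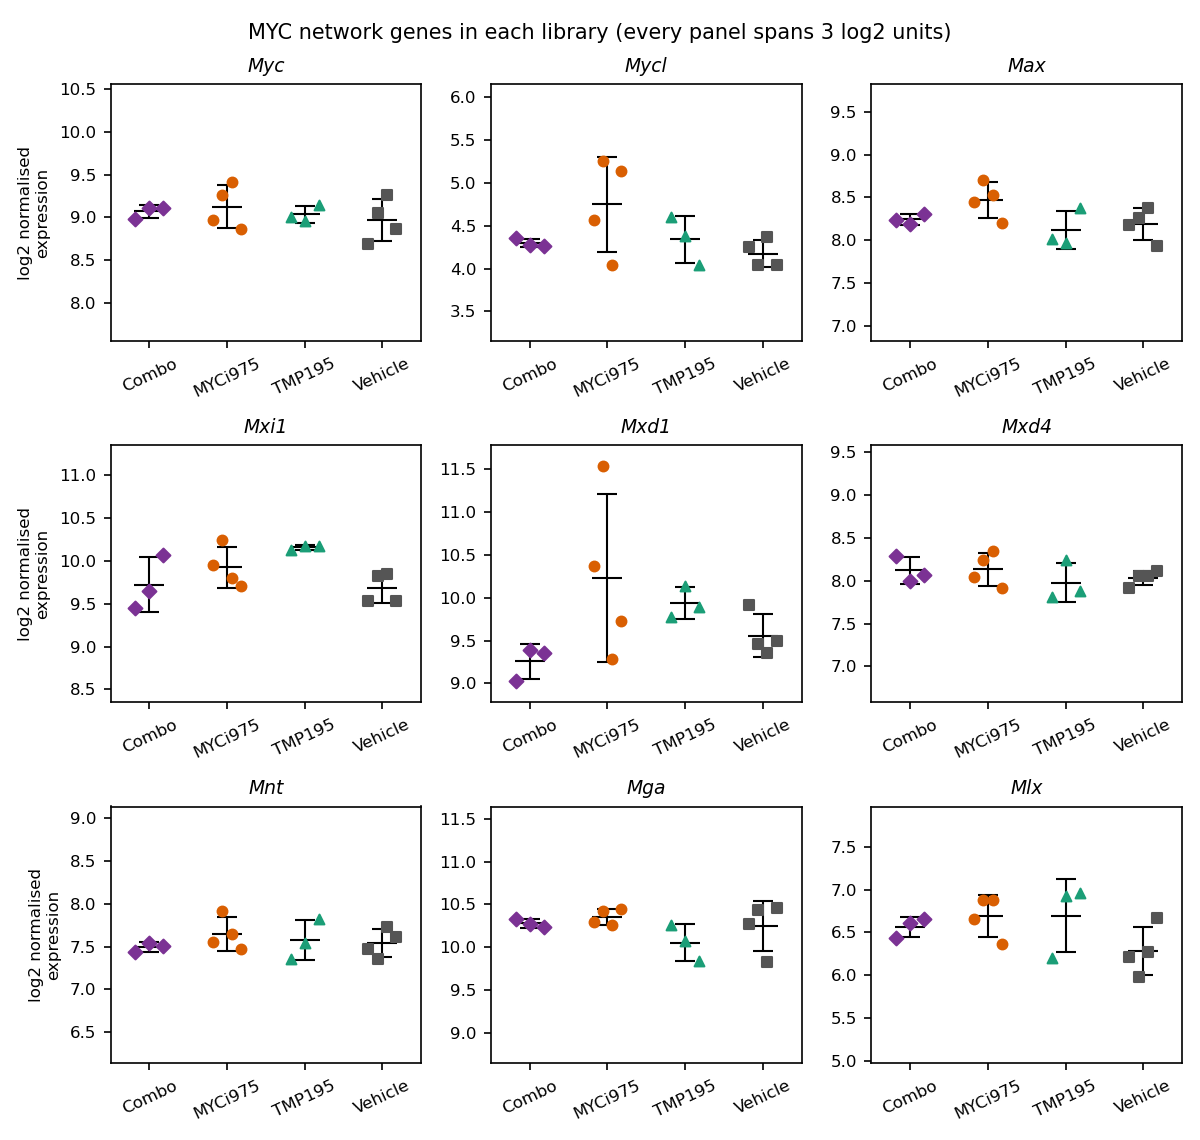
Normalised log2 expression (vertical axis) of 9 genes of the MYC network in each library, by group (horizontal axis). Points are libraries, the long line is the group mean and the bars are 1 SD, and every panel spans the same number of log2 units. Mxd1 has the widest spread, with MYCi975 replicate 2 at 11.53, and the 3 TMP195 libraries lie close together for Mxi1.

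Mycl, which encodes L-MYC, was near the lowest value throughout. It was at that value in 4 libraries, namely MYCi975 replicate 3, TMP195 replicate 3 and Vehicle replicates 2 and 4. The highest values were 5.25 and 5.14, in MYCi975 replicates 2 and 4, and the remaining libraries lay between 4.25 and 4.6. No test was made, and no order of the groups is read from such values.

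Max encodes the partner on which MYC and its antagonists depend. Its level was 8.23, 8.19 and 8.31 in Combo, 8.45, 8.70, 8.53 and 8.20 in MYCi975, 8.01, 7.96 and 8.37 in TMP195, and 8.17, 8.26, 8.37 and 7.93 in Vehicle. MYCi975 held the 3 highest libraries of the series and its replicate 4 lay within the Vehicle range, so the groups overlapped. Max averaged 8.47 ± 0.21 in MYCi975 and 8.19 ± 0.19 in Vehicle (SD, n = 4 each), a difference of 0.28 (-0.0108 to 0.58) with an unadjusted p of 0.0579 and an adjusted p of 0.999 by limma. Combo and TMP195 differed from Vehicle by 0.06 and -0.07, with intervals of -0.262 to 0.375 and -0.391 to 0.247. Against TMP195, Max was higher in MYCi975 by 0.36 (0.0375 to 0.675), with an unadjusted p of 0.0308 that did not hold after adjustment over all genes (limma adjusted p = 0.998).

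Mxi1 encodes a repressor that competes with MYC, and the gene is a known target of the hypoxia-induced factor HIF-1. Its level was 9.45, 9.65 and 10.07 in Combo and 9.96, 10.25, 9.80 and 9.70 in MYCi975. It was 10.13, 10.17 and 10.18 in TMP195, against 9.53, 9.82, 9.84 and 9.54 in Vehicle. The 3 TMP195 libraries lay above all 4 Vehicle libraries and above all 3 Combo libraries. Across the genes tested, 2.4% had all TMP195 libraries above all Vehicle libraries. Mxi1 averaged 10.16 ± 0.03 in TMP195 (SD, n = 3) and 9.68 ± 0.17 in Vehicle (SD, n = 4). The difference was 0.47 (0.129 to 0.817), or 1.39-fold on this scale, with rank 46 by p among 13711 genes. Its unadjusted p was 0.0102 and its adjusted p was 1 by limma, so it did not pass. Leaving out each library in turn moved the difference between 0.42 and 0.53. MYCi975 averaged 9.93 ± 0.24 (SD, n = 4), which is 0.24 above Vehicle (-0.0752 to 0.562), and 0.14 above it without MYCi975 replicate 2. Combo averaged 9.72 ± 0.32 (SD, n = 3), which is 0.04 above Vehicle (-0.305 to 0.383).

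Mxi1 had its highest group mean in TMP195, while the Combo mean lay near that of Vehicle. Combo replicate 3, at 10.07, lay above every Vehicle library. Combo lay 0.43 below TMP195 (-0.802 to -0.0666, unadjusted p = 0.0236, limma adjusted p = 0.998). The interaction asks whether the MYCi975 difference depends on TMP195, if Combo had the single-agent doses, which the labels do not state. It is the Combo minus TMP195 difference less the MYCi975 minus Vehicle difference. For Mxi1 it was -0.68 (-1.16 to -0.191), with an unadjusted p of 0.0095 and an adjusted p of 0.911 by limma. The interaction stayed between -0.85 and -0.54 when each library was left out.

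Genes of the hypoxia response were set beside Mxi1. Of 18 such genes tested, the mean of 15 was higher in TMP195 than in Vehicle, where 50.8% of all genes were higher. The median difference was 0.18 against 0.0036 for all genes. At an unadjusted p under 0.05 there were 3 of the 18, against 2.78% of all genes. The smallest p-values were those of Ndrg1, a stress-response gene, at 0.57 ± 0.20 (SE), and Adm, which encodes the vasodilator adrenomedullin, at 0.65 ± 0.26 (SE). In Combo all 18 had a lower mean than in TMP195, with a median of -0.29, where 51.1% of all genes were higher. Of the 18, 5 had an unadjusted p under 0.05, against 4.4% of all genes. Combo against Vehicle had 6 higher and 12 lower, and MYCi975 against Vehicle had 11 higher and 7 lower (median 0.09, and 0.05 without replicate 2). None of these genes passed after adjustment (limma). The mean of the hypoxia genes, in log2 units from the mean of all libraries, was -0.33, -0.10 and 0.06 in Combo, -0.01, 0.17, -0.12 and 0.08 in MYCi975, 0.27, 0.25 and -0.02 in TMP195, and -0.08, 0.00, -0.17 and 0.00 in Vehicle. TMP195 replicate 3 had high Mxi1 without a high hypoxia mean, and the other TMP195 libraries had both. With the hypoxia mean as a covariate, an alternative added after seeing the data, the Mxi1 difference between TMP195 and Vehicle was 0.30 and the interaction -0.39. That mean comes from the same treated libraries and also differs between the groups, so this fit is no test of a cause.

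Mxd1 encodes the founding MAX dimerisation repressor and is known for its induction as myeloid cells differentiate. It was the most variable member. Its level was 9.02, 9.39 and 9.35 in Combo and 10.37, 11.53, 9.28 and 9.73 in MYCi975. It was 9.77, 10.14 and 9.89 in TMP195, against 9.92, 9.46, 9.36 and 9.49 in Vehicle. MYCi975 alone spanned more than the other groups together, with its replicate 3 below every Vehicle library and its replicate 2 above every other library. The SD over 14 libraries was 0.626, at percentile 98.5 among 1009 genes of similar level, whereas Mxd4 and Mnt were at percentiles 17.2 and 16.8 of theirs. Mxd1 averaged 9.26 ± 0.20 in Combo (SD, n = 3), 10.23 ± 0.98 in MYCi975 (n = 4), 9.93 ± 0.19 in TMP195 (n = 3) and 9.56 ± 0.25 in Vehicle (n = 4). The difference from Vehicle was -0.30 for Combo (-1.07 to 0.468), 0.67 for MYCi975 (-0.0445 to 1.38) and 0.38 for TMP195 (-0.394 to 1.15), and none passed.

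Mxd1 had its lowest group mean in Combo. Combo lay 0.97 below MYCi975 (-1.74 to -0.20, unadjusted p = 0.0169, limma adjusted p = 0.611), although MYCi975 replicate 3 lay within the Combo range. Combo lay 0.68 below TMP195 (-1.5 to 0.145), with all 3 Combo libraries under all 3 TMP195 libraries. Mxi1 and Mxd1 were the 2 members whose Combo libraries lay wholly below TMP195, as 6.36% of all tested genes did. The Mxd1 interaction was -1.35 (-2.44 to -0.257), with an unadjusted p of 0.0187 and an adjusted p of 0.911 by limma. Without MYCi975 replicate 2 the MYCi975 minus Vehicle difference was 0.23, Combo minus MYCi975 was -0.53 and the interaction -0.91. No Mxd1 difference passed the adjustment with or without that library.

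Neutrophil markers had the same order of group means as Mxd1. The mean of 9 tested markers, in log2 units from the mean of all libraries, was -0.65, -0.39 and -0.32 in Combo and 0.53, 1.37, -0.38 and -0.11 in MYCi975. It was 0.46, 0.45 and -0.17 in TMP195, against 0.05, -0.07, -0.55 and -0.23 in Vehicle. As with Mxd1, MYCi975 replicates 2 and 1 were the 2 highest libraries and Combo replicate 1 the lowest. Ly6g, a defining marker of mouse neutrophils, lay between 4.05 and 5.39 and was not tested, while S100a8, which encodes an abundant neutrophil protein, lay between 8.69 and 10.52. All 9 markers had a lower mean in Combo than in Vehicle (median -0.29), and all 9 a higher mean in MYCi975 (0.55) and in TMP195 (0.41). Without MYCi975 replicate 2, 8 of 9 had a higher mean in MYCi975 than in Vehicle (0.24). For the interaction all 9 were negative, with a median of -1.27, where 50.2% of all genes were positive. An unadjusted p under 0.05 held for 7 of the 9 and for 4.78% of all genes. None of the 9 passed after adjustment (limma). Lower means in Combo than in Vehicle were not particular to neutrophil markers. They were found for 4 of 4 leukocyte markers (median -0.54) and 6 of 6 T cell markers (-0.45). The same held for 6 of 8 macrophage markers (-0.44) and 3 of 4 dendritic markers (-0.115). It also held for 4 of 5 endothelial markers (-0.19) and 3 of 3 skeletal muscle markers (-1.2). All 6 fibroblast markers instead had a higher mean in Combo (0.45), and erythroid, epithelial and proliferation markers went both ways. Across all genes 49.7% were higher in Combo. Relative to Vehicle, leukocyte markers were also higher in MYCi975 (4 of 4, 0.19) and in TMP195 (4 of 4, 0.22). Macrophage markers were higher for 2 of 8 in MYCi975 and 3 of 8 in TMP195. Without MYCi975 replicate 2, 0 of 4 leukocyte markers were higher in MYCi975 (-0.13). In bulk tumour RNA, fewer cells of a type and less RNA per cell cannot be told apart.

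Across the 14 libraries Mxd1 followed the neutrophil mean with Pearson's r = 0.945 (permutation p = 1e-05, the smallest that 100000 permutations can give) and Spearman's rho = 0.899 (permutation p = 5e-05). Adjusted over the 124 relations computed, these p-values were 0.00124 and 0.0062. Without the 2 libraries farthest from the median neutrophil mean, MYCi975 replicates 1 and 2, r was 0.84 (permutation p = 0.00056, adjusted p = 0.0694). Without MYCi975 replicate 2 alone r was 0.882 (adjusted p = 0.00372), and with group means removed it was 0.92. With the neutrophil mean as a covariate, an alternative added after seeing the data, Mxd1 differed from Vehicle by -0.03 in Combo, 0.07 in MYCi975 and -0.11 in TMP195, and the interaction was 0.0016 ± 0.298 (SE). The neutrophil mean comes from the same treated libraries and has the same order of group means as Mxd1. Smaller differences follow from that likeness, so this fit is no test of a cause.

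**Figure D2:**
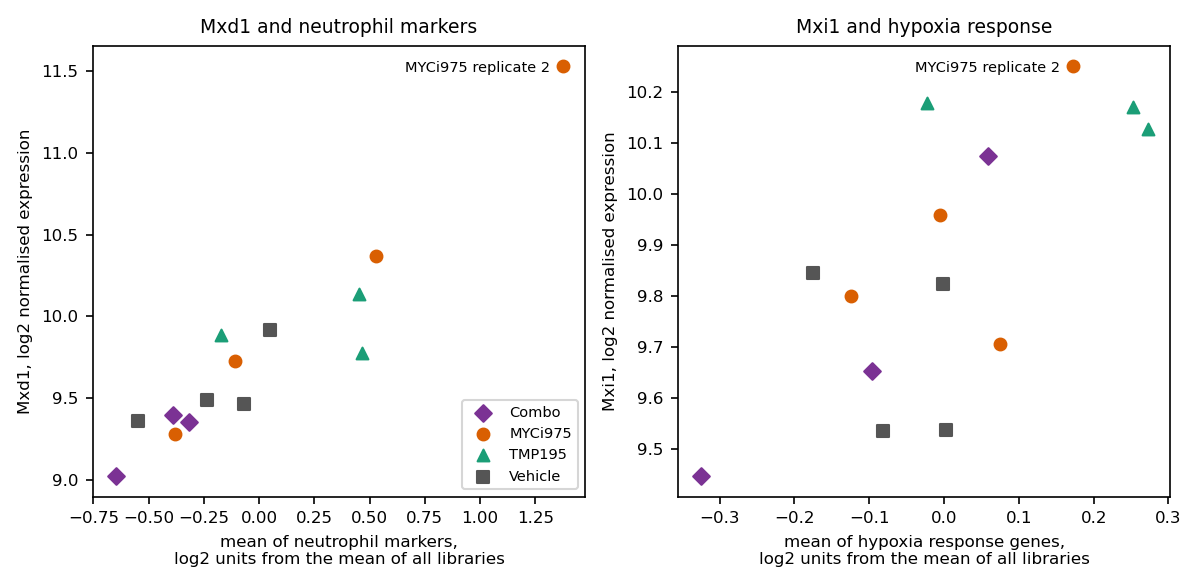
Mxd1 against the mean of the neutrophil markers (left) and Mxi1 against the mean of the hypoxia response genes (right). Each point is 1 of 14 libraries, the vertical axes are log2 normalised expression and the horizontal axes log2 units from the mean of all libraries. Pearson's r is 0.945 on the left and 0.71 on the right, and MYCi975 replicate 2 is named in both panels.

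Mxd4, the third antagonist of the MXD family, varied little. It was 8.29, 8.0 and 8.07 in Combo, 8.04, 8.24, 8.35 and 7.92 in MYCi975, 7.81, 8.24 and 7.88 in TMP195, and 7.91, 8.05, 8.05 and 8.11 in Vehicle. The groups overlapped throughout. Differences from Vehicle were 0.09 for Combo (-0.214 to 0.394), 0.11 for MYCi975 (-0.176 to 0.386) and -0.05 for TMP195 (-0.358 to 0.25). The MYCi975 difference was 0.07 without replicate 2.

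Mnt, the antagonist found in most cell types, was as even. It was 7.43, 7.55 and 7.51 in Combo, 7.55, 7.92, 7.65 and 7.47 in MYCi975, 7.36, 7.55 and 7.83 in TMP195, and 7.47, 7.35, 7.73 and 7.62 in Vehicle. MYCi975 replicate 2 and TMP195 replicate 3 were its highest libraries, and all groups overlapped. It differed from Vehicle by -0.05 in Combo (-0.369 to 0.274), 0.10 in MYCi975 (-0.194 to 0.401) and 0.03 in TMP195 (-0.287 to 0.356). The MYCi975 difference was 0.012 without replicate 2.

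Mga, the scaffold of the MAX-bound Polycomb complex, was 10.33, 10.27 and 10.23 in Combo and 10.29, 10.42, 10.25 and 10.44 in MYCi975. It was 10.26, 10.07 and 9.83 in TMP195, against 10.27, 10.43, 9.82 and 10.46 in Vehicle. TMP195 replicate 3 and Vehicle replicate 3 were low and all other libraries lay at 10.07 or more. Differences from Vehicle were 0.03 for Combo (-0.291 to 0.352), 0.11 for MYCi975 (-0.193 to 0.403) and -0.19 for TMP195 (-0.514 to 0.129).

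Mlx, which links the network to glucose sensing, was the lowest of the tested members before any correction for length. It was 6.44, 6.61 and 6.65 in Combo, 6.65, 6.88, 6.88 and 6.36 in MYCi975, 6.21, 6.92 and 6.96 in TMP195, and 6.22, 5.99, 6.27 and 6.67 in Vehicle. The mean of each treated group lay above that of Vehicle, yet Vehicle replicate 4, at 6.67, was above all 3 Combo libraries and within the range of the other treated groups. The difference from Vehicle was 0.28 for Combo (-0.163 to 0.729), 0.41 for MYCi975 (-0.00259 to 0.824) and 0.41 for TMP195 (-0.0347 to 0.858). Unadjusted p-values were 0.197, 0.0513 and 0.0682, and the adjusted ones were at least 0.992 by limma. Its interaction was -0.54 (-1.17 to 0.092). The 3 genes listed as targets of MLX with MondoA, namely Txnip, Arrdc4 and Klf10, had medians of -0.02 in Combo, 0.18 in MYCi975 and 0.20 in TMP195 relative to Vehicle, and none passed. The MYCi975 median was 0.09 without replicate 2. Txnip, which encodes a brake on glucose uptake, differed from Vehicle by 0.19 ± 0.19, 0.26 ± 0.17 and 0.30 ± 0.19 (SE) in Combo, MYCi975 and TMP195, and by 0.09 in MYCi975 without replicate 2.

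**Figure D3:**
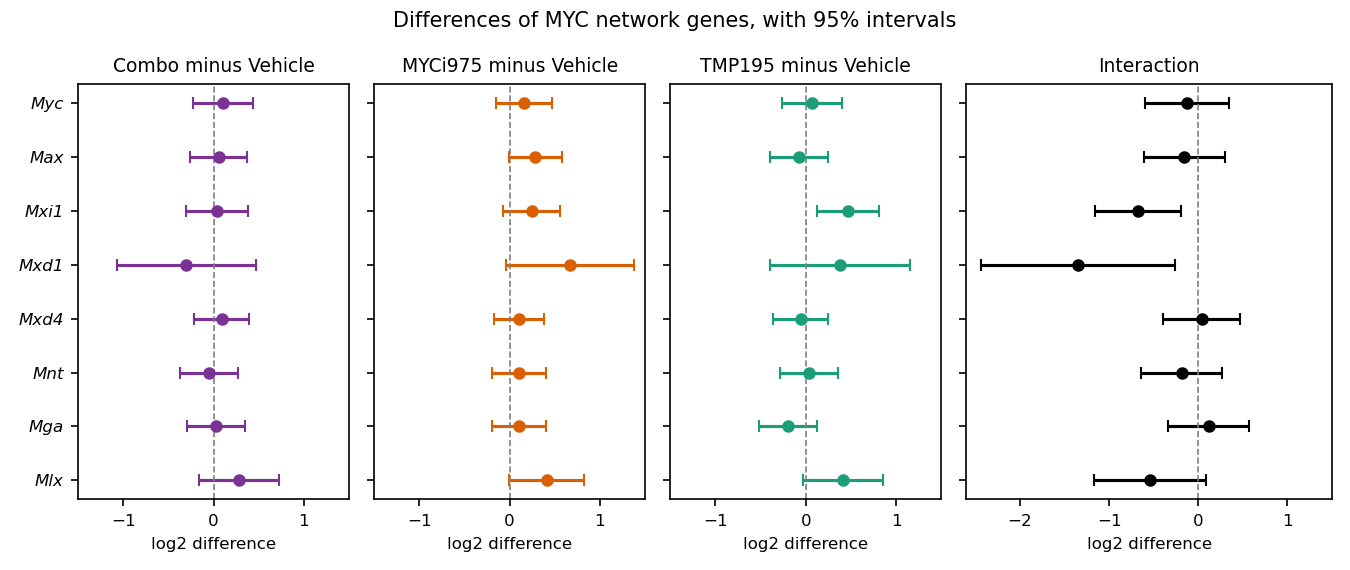
Differences of the 8 tested genes for Combo, MYCi975 and TMP195 against Vehicle and for the interaction (log2 difference on the horizontal axis, genes down the page, bars are 95% intervals from limma, not adjusted for the number of genes). The interval excludes 0 for Mxi1 in TMP195 and for Mxi1 and Mxd1 in the interaction.

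Taken by comparison, no member passed at an adjusted p of 0.05, nor did any of the 13711 genes (0% in each of the 7 comparisons, limma with Benjamini-Hochberg adjustment). At an unadjusted p under 0.05 there were 0 of 8 members for Combo against Vehicle, where 3.43% of all genes (470) fell under it, and 0 for MYCi975 against Vehicle (3.33%, 457 genes). There was 1 for TMP195 against Vehicle, Mxi1 (2.78%, 381 genes). There was 1 each for Combo against MYCi975, Mxd1 (8.17%, 1120 genes), Combo against TMP195, Mxi1 (4.4%, 603 genes), and MYCi975 against TMP195, Max (4.46%, 612 genes). The interaction had 2, Mxi1 and Mxd1 (4.78%, 656 genes). The members next in p between treatments were Max and Mxi1 for Combo minus MYCi975, at -0.23 ± 0.15 and -0.20 ± 0.16 (SE), or -0.15 and -0.10 without MYCi975 replicate 2. Mga was at 0.22 ± 0.16 for Combo minus TMP195 and at 0.30 ± 0.15 for MYCi975 minus TMP195 (SE).

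All 8 members had a higher mean in MYCi975 than in Vehicle, with a median of 0.20, where 51.7% of all genes were higher and their median was 0.0073. Without MYCi975 replicate 2 all 8 were still higher, with a median of 0.12, and without Vehicle replicate 3, which had low Mga, 7 were. In Combo against MYCi975 all 8 had a lower mean in Combo, with a median of -0.14 against 0.0014 for all genes, and 50.2% of all genes were higher. Leaving out single libraries left 6 to 8 of them lower. The median without MYCi975 replicate 2 was -0.06. Both of these counts, and the interaction below, use the same 4 MYCi975 libraries, so they are not separate observations. The members are not independent signs either, since 22 of their 28 pairs had a positive r. Combo against Vehicle had 6 members higher and 2 lower (median 0.05), where 49.7% of all genes were higher, and TMP195 against Vehicle had 5 and 3 (0.05, all genes 50.8%). MYCi975 against TMP195 had 6 and 2 (0.13, all genes 50.7%), but 4 and 4 without MYCi975 replicate 2 (0.012, all genes 49.5%). Combo against TMP195 had 4 and 4 (-0.02, all genes 51.1%). The interaction was positive for 2 members and negative for 6 (median -0.17), and positive for 50.2% of all genes. The median of the interaction was -0.09 without MYCi975 replicate 2 and -0.07 without TMP195 replicate 3. Leaving out single libraries left 4 to 6 of the 8 members higher in Combo than in Vehicle, 4 to 6 higher in TMP195 than in Vehicle, and 3 to 6 higher in Combo than in TMP195, the 6 being without TMP195 replicate 3. The median for TMP195 against Vehicle ran from -0.0082 without Vehicle replicate 1 to 0.13 without Vehicle replicate 3.

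The antagonists of the MXD family were set beside Myc as the mean of Mxi1, Mxd1 and Mxd4 minus Myc in each library. No correction for length was made and Mnt was not included, so the level of this value is not a balance of the proteins. It ran from -0.10 to 0.05 in Combo, -0.27 to 0.74 in MYCi975, 0.17 to 0.56 in TMP195 and -0.18 to 0.43 in Vehicle. Combo lay wholly below TMP195, and the other pairs of groups overlapped. Mxi1 and Mxd1 each had that separation already, so it is no further observation. This value is a description, it includes Mxd1 with its neutrophil relation, and it was not tested.

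Genes that answer to MYC gave no call in any treated group. The list held 61 MYC-responsive genes, many of which serve ribosome production, nucleotide synthesis or DNA replication. Of these, 25 had a higher and 36 a lower mean in MYCi975 than in Vehicle (median -0.05). Without MYCi975 replicate 2 there were 31 higher and 30 lower (0.00067). With all libraries 1 gene, Fbl, had an unadjusted p under 0.05 in MYCi975 against Vehicle, where 3.33% of all genes did. It was higher, at 0.57 ± 0.24 (SE). Combo against Vehicle had 27 higher and 34 lower (-0.0093). TMP195 against Vehicle had 10 higher and 51 lower (-0.16), where 50.8% of all genes were higher. Of the 61, 5 had an unadjusted p under 0.05, all lower, against 2.78% of all genes. The smallest p-values there were those of Cdc25a, a cell-cycle phosphatase gene, at -0.45 ± 0.16 (SE), and Bcat1, which encodes a branched-chain amino acid transaminase, at -0.32 ± 0.13 (SE). Against TMP195, 50 of the 61 had a higher mean in Combo (0.10), as did 51.1% of all genes. MYCi975 against TMP195 had 42 higher and 19 lower (0.11, all genes 50.7%), or 50 and 11 without MYCi975 replicate 2 (0.16). The interaction was positive for 51 and negative for 10 (0.15), where 50.2% of all genes were positive. None of the 61 passed in any comparison by limma.

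Of 9 genes known to be repressed by MYC, 7 were tested. In MYCi975 against Vehicle 4 were higher and 3 lower (median 0.11). An unadjusted p under 0.05 was found for 3, all higher, and for 3.33% of all genes. The median was 0.05 without MYCi975 replicate 2. Gadd45a, a growth-arrest and DNA-damage gene, was at 0.64 ± 0.18 (SE), and Cdkn1b, which encodes the cell-cycle inhibitor p27, at 0.39 ± 0.16 (SE). Without that library they were at 0.53 and 0.26. In Combo against MYCi975 Gadd45a was at -0.72 ± 0.19 (SE). Combo against Vehicle gave 4 higher and 3 lower (0.03), and TMP195 against Vehicle gave 4 and 3 (0.15), with Ndrg1 having the smallest p. Ndrg1 is in the hypoxia list as well, so this is the value already given there. None passed.

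The corepressor that MXD1, MXI1, MXD4 and MNT recruit was also followed. Of 14 genes for SIN3 subunits, 1 had a higher and 13 a lower mean in Combo than in Vehicle. Their median was -0.13, against -0.0022 for all genes, of which 49.7% were higher. None of the 14 had an unadjusted p under 0.05. Sap18 was at -0.38 ± 0.19 and Ing1 at -0.28 ± 0.17 (SE), both accessory subunits of the complex. MYCi975 and TMP195 each had 7 higher and 7 lower against Vehicle. Sap30, another subunit, was at 0.22 ± 0.12 in MYCi975 against Vehicle (0.14 without MYCi975 replicate 2) and at -0.40 ± 0.13 in Combo against MYCi975 (SE). The 12 genes of the MGA complex had medians of -0.08 in Combo, -0.03 in MYCi975 and -0.13 in TMP195 relative to Vehicle, and the MYCi975 median was 0.02 without replicate 2, with 6 higher and 6 lower. Of these, Rybp was at 0.51 ± 0.24 in MYCi975 (0.22 without replicate 2) and Cbx3, which encodes a heterochromatin protein, at -0.36 ± 0.14 in TMP195 (SE).

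Other parts of the network were also followed. Among 12 cofactor genes Trrap, whose product recruits histone acetyltransferases to MYC, was at 0.41 ± 0.15 in Combo against Vehicle (SE). The cofactor medians were 0.11 in Combo, 0.0021 in MYCi975 and 0.06 in TMP195, and -0.04 in MYCi975 without replicate 2. The 17 genes for turnover of the MYC protein had medians of -0.04, 0.05 and -0.10 in Combo, MYCi975 and TMP195 relative to Vehicle, with no unadjusted p under 0.05. The MYCi975 median was 0.0065 without replicate 2. Usp28, a ubiquitin protease gene, was at 0.45 ± 0.27 in Combo, and Pim1, a kinase gene, at 0.54 ± 0.39 in MYCi975 (SE), or 0.05 without replicate 2. Mxd3, a further MXD gene, was at 0.01 ± 0.22 in Combo, -0.07 ± 0.20 in MYCi975 and -0.13 ± 0.22 in TMP195 (SE). Mlxip, which encodes MondoA, was at -0.02 ± 0.25, 0.13 ± 0.23 and 0.14 ± 0.25 (SE) in the same order. Without MYCi975 replicate 2 the MYCi975 differences were -0.0047 for Mxd3 and -0.15 for Mlxip. Mlxipl, which encodes ChREBP, was too low to be tested. No gene of these lists passed by limma in any comparison.

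The members were also set against markers of the cells a tumour can hold. Of 96 relations between 8 members and 12 gene lists, 4 had an adjusted p under 0.05 by Pearson's r over the 14 libraries. Besides the neutrophil relation, Mxd1 followed the leukocyte markers (r = 0.815, rho = 0.719, permutation p = 0.00075 and 0.00475, adjusted p = 0.0263 and 0.0982) and the T cell markers (r = 0.762, rho = 0.811, permutation p = 0.00081 and 0.0008, adjusted p = 0.0263 and 0.0331). Without the 2 farthest libraries r was 0.672 and 0.675, with adjusted p = 0.365 for each. Mnt followed the leukocyte markers (r = 0.80, rho = 0.705, permutation p = 0.00085 and 0.0063, adjusted p = 0.0263 and 0.112). Its r was 0.457 without MYCi975 replicate 2 and TMP195 replicate 3 (permutation p = 0.135), so the relation was weaker without those libraries. None of the 124 relations passed the adjustment without its 2 farthest libraries. Mxi1 and the hypoxia genes had r = 0.71 and rho = 0.574 (permutation p = 0.0044 and 0.0349, adjusted p = 0.0909 and 0.334), and r was 0.577 without the 2 farthest libraries. Mxd1 ran against the epithelial markers, with r = -0.624 and rho = -0.837 (permutation p = 0.0114 and 0.0003, adjusted p = 0.138 and 0.0186), and r was -0.617 without the 2 farthest libraries.

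Myc followed none of the lists past the adjustment. Its r was -0.03 with the neutrophil markers, 0.19 with the leukocyte markers, 0.48 with the epithelial markers and 0.24 with the proliferation markers. Among the 28 pairs of members 22 had a positive r, and none passed the adjustment. The highest were Myc with Max (r = 0.673, rho = 0.723, permutation p = 0.00856 and 0.00466, adjusted p = 0.118 and 0.0982) and Mnt with Mlx (r = 0.672, rho = 0.749, permutation p = 0.00831 and 0.00294, adjusted p = 0.118 and 0.0911). Without the 2 farthest libraries these were 0.697 and 0.537.

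**Figure D4:**
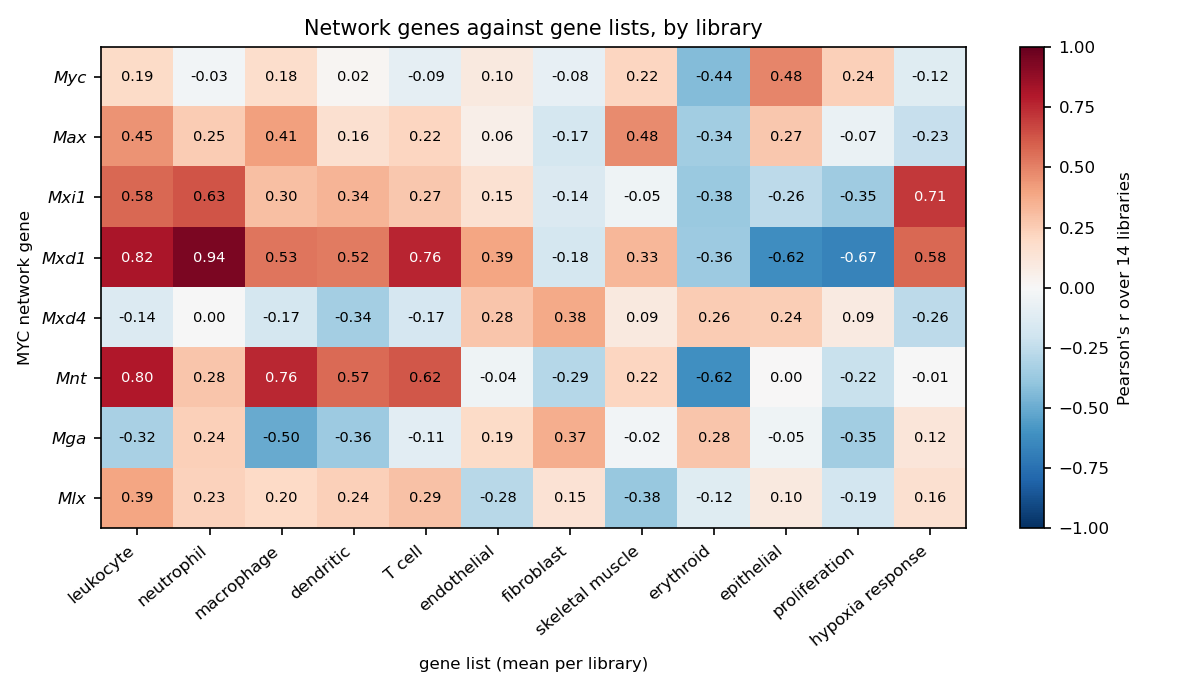
Pearson's r over 14 libraries between each tested member (rows) and the mean of each gene list (columns), with red for positive and blue for negative values. The Mxd1 row has the highest values, up to 0.94 with the neutrophil markers, and the Myc row lies between -0.44 and 0.48.

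The genes whose library values ran most like each member were sought among 11558 tested genes with a standard name, as a description over 14 libraries. For Mxd1 they were Hcar2 (r = 0.98), Sh2d3c (0.977) and Lilr4b (0.971). For Mxi1 they were Furin (0.911), Whamm (0.867) and Elf1 (0.857). For Myc they were Thoc5 (0.886), Actn4 (0.823) and Cav1 (0.819), and for Max they were Crk (0.895), Gfm1 (0.892) and again Thoc5 (0.875). Mnt had Sept1 (0.909), Myl12b (0.892) and Siglech (0.883). Mga had Pigw (0.878), Trmt1l (0.868) and Mdm4 (0.834), Mxd4 had Rbbp9 (0.832), Dpy19l3 (0.823) and Agap1 (0.813), and Mlx had Cdkn1a (0.78), Coa5 (0.777) and Ppt2 (0.766). These are the highest of many values, so they are large in part by choice.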

How the data were processed

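The authors deposited 1 table of 21152 genes by 14 libraries, whose values are variance-stabilised expression on a log2 scale per the file headers and the name of the table. The submitters' processing notes name Salmon, without a version, and the build hg38, which is human, whereas the identifiers are mouse Ensembl IDs. Filters and library scaling were not given in the sources used here. Of the IDs, 20264 (95.8%) matched a mouse symbol. All libraries share the lowest value of 4.05, read counts could not be recovered and no count model was used, so depth is unknown, and differences of genes near that value understate the fold.

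Genes were tested when their mean lay more than 1 log2 unit above the lowest value (13711 genes). limma 3.58.1 under R 4.3.3 fitted 4 group means to the 14 libraries together (10 residual degrees of freedom, empirical Bayes moderation along the intensity trend). All tests were two-sided, with Benjamini-Hochberg adjustment over all tested genes and a threshold of 0.05. Simulated data for TMP195 against Vehicle held 13711 genes, with 100 changed by 1 log2 unit and 100 by 2. The fit recovered 75% of the former and 95% of the latter, with 9 false calls. Every member difference from Vehicle was smaller than 1 log2 unit, and recovery at such sizes was not measured. Correlations used 100000 permutations and were adjusted over 124 relations, 96 of members with lists and 28 of pairs. The hypoxia list was added to the correlations after seeing the data.

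The members and the gene lists were chosen with earlier results of these data known. Named genes were the members, the list genes with the smallest p in a comparison (up to 2 per list) and, per member, the 3 genes most like it. The list genes named in comparisons between treatments, S100a8 and Ly6g were chosen after their values were seen. Some list genes are not reported here. Transcript lengths came from GENCODE M21 and promoter windows from RefSeq on GRCm38.p6. Alternatives were no filter, a filter 2 log2 units above the lowest value, moderation without a trend, median centring, a block by replicate number, fits to the compared groups alone, Ptprc as a covariate and leaving out each library.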

Additional observations from a re-analysis of the deposited data

How the results depend on the processing

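The differences of 8 members from Vehicle and of the 3 members with the smallest p in each other comparison, 36 in all, were recomputed under the alternatives. Of the 766 values, 21 changed sign and none had an adjusted p under 0.05 (smallest 0.262, limma). With the replicate block, Combo minus Vehicle was -0.031 for Max and -0.023 for Mxi1. Whether replicate numbers pair the libraries was not tested. Of 19 same-number pairs, 6 had a correlation of deviations over 0.1. The median was 0.0364 for same-number pairs and -0.00365 for other pairs. Other pairs also exceeded 0.1, up to 0.337 for MYCi975 replicate 2 with TMP195 replicate 3, while the highest same-number value was 0.215. In other groups, 6 of 14 libraries had their closest match in one with their own number. With Ptprc as a covariate, Combo minus Vehicle was 0.17 for Mxd1, 0.076 for Mnt and -0.010 for Mga, and TMP195 minus Vehicle was -0.019 for Mnt. Ptprc as a covariate also gave 1 gene past the threshold, in MYCi975 against TMP195, where there were 0 without it: Chil3, at 1.19 (limma adjusted p = 0.0301), named after its values were seen. With the neutrophil mean as a covariate, Mxd1 was at -0.11 for TMP195 minus Vehicle, 0.074 for Combo minus TMP195 and 0.0016 for the interaction. Of 124 relations, 4 passed with all libraries, 0 without the 2 farthest libraries, 1 without MYCi975 replicate 2 and 5 with group means removed. The cause of these shifts was not tested.

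Leaving out each library gave 0 genes past the threshold in all 7 comparisons. Ranges that crossed 0 were, for Combo minus Vehicle, -0.028 to 0.12 for Max, -0.14 to 0.18 for Mxi1, -0.11 to 0.017 for Mnt and -0.11 to 0.10 for Mga. For MYCi975 minus Vehicle the range was -0.036 to 0.18 for Mga. For TMP195 minus Vehicle they were -0.026 to 0.17 for Myc, -0.20 to 0.0028 for Max, -0.18 to 0.027 for Mxd4 and -0.090 to 0.14 for Mnt. With 3 or 4 libraries a group and unknown depth, the intervals bound what could be seen.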
